A study of Mus musculus with 8 samples.

Results

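The 10 genes described here are markers of neurons that build the cytoskeleton or bind RNA. They were taken by name and not by a cut on measured values, though earlier results of these data were known. They are *Tubb3*, *Map2*, *Dcx*, *Stmn2*, *Nefl*, *Nefm*, *Nefh*, *Rbfox3*, *Celf5* and *Elavl3*, 10 of the 21938 protein-coding genes on 21 mouse chromosomes in the GENCODE M21 annotation. For each gene, ATAC-seq peaks were collected over the gene body and 20 kb on each side on mm10. A peak within 1 kb of an annotated transcription start site (TSS) of the gene counted as a promoter peak, and any other peak in the locus counted as distal.

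Neurons keep a stable and specialised cytoskeleton. Class III beta-tubulin (*Tubb3*) is assembled into their microtubules, microtubule-associated proteins such as MAP2 and doublecortin (*Dcx*) bind and stabilise those microtubules, stathmin-2 (*Stmn2*) regulates their dynamics in growing neurites, and the light, medium and heavy neurofilament subunits (*Nefl*, *Nefm*, *Nefh*) set axon calibre. NeuN (*Rbfox3*), CELF5 and HuC (*Elavl3*) are RNA-binding proteins of neurons that act on splicing, stability or translation of mRNA. Many such genes lie near a copy of RE1, the site bound by the repressor REST, which holds neuronal genes silent outside neurons and in neural progenitors. An ATAC-seq peak marks DNA that a transposase can reach and does not measure expression.

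The peak lists came from 8 libraries of SN4741, a line from the substantia nigra of mouse embryos that is reported to be clonal. The labels describe it as neural precursor cells with a WT genotype. It carries a temperature-sensitive T antigen driven by the tyrosine hydroxylase promoter, and the authors found its karyotype unstable and mostly triploid. Cells of 4 libraries were kept at the permissive temperature of 37°C in 10% serum, and those of the other 4 spent 48 h at the non-permissive 39°C in 0.5% serum, the condition used to induce differentiation. Temperature and serum therefore cannot be told apart, and both groups carry the T antigen. Each library began with 50000 cells and was amplified over 12 cycles, so fewer cells with an open site and a less open site in each cell cannot be told apart either.

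The libraries held 49.8 to 169 M kept fragments at 37°C and 52.7 to 71.2 M at 39°C (M, mega), and the lists held 74026 to 92013 peaks at 37°C and 54845 to 68410 at 39°C. Replicates 1 and 4 at 37°C were the deep ones, with more than 100 M fragments. Peak strength was given as a percentile, the rank of the −log10 q of a peak within its own list, where 100 is the strongest. A peak of the same rank from the top has a lower percentile in a shorter list, and 93.4% of 13145 genes with a promoter peak in every library had a lower mean percentile at 39°C. Percentiles were therefore also taken after each list was cut to its 54845 strongest peaks, the length of the shortest, called lists of equal length below.

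Promoters of 9 of the 10 genes were called open in all 8 libraries, against 59.9% of all protein-coding genes. With the summit itself required within 1 kb of a start, 4 genes (*Map2*, *Nefl*, *Rbfox3* and *Celf5*) had one in all libraries, against 56% of all genes. *Tubb3* and *Nefm* then had one in 7 libraries (3 at 37°C and 4 at 39°C) and *Nefh* in 6 (2 and 4). *Stmn2* had one in 1 library at 37°C and *Elavl3* in 1 at 39°C. At the outermost start alone it was 8 genes, without *Rbfox3*, against 55.9%. *Dcx* was the exception, with no promoter peak in any library, as for 31.3% of all genes. No gene of the set had a promoter peak at only one temperature, a pattern that 1.46% of all genes showed with peaks in every 37°C library and no 39°C library and that 0.0137% showed in the opposite direction. As a set these promoters ranked below the median of all genes, with *Map2* above it in every library. The median percentile of the 9 promoter peaks was 69.98 to 76.4 in the libraries at 37°C and 62.1 to 69.1 at 39°C, while the median over all genes with a peak in every library was 90.6 to 92.2 at 37°C and 87.0 to 89.4 at 39°C.

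In the whole lists, 8 of the 9 promoter peaks had a lower percentile in every 39°C library than in every 37°C library, where the same held for 52.4% of all genes tested. None was higher in every 39°C library, against 0.51% of all genes. The median difference (39°C minus 37°C) was -7.53 percentile points over the 9 genes and -2.51 over all genes. A shorter list lowers the percentile more for a peak that ranks further from the top. The 9 peaks ranked lower than those of all genes at 37°C, so these medians are not directly comparable. In lists of equal length, 8 genes could be compared, since the *Elavl3* peak dropped out of most lists. Of these, 1 was lower in every 39°C library (*Nefh*) against 15.4% of all genes, 1 was higher (*Stmn2*) against 7.75%, and 6 overlapped between temperatures. The median difference was then -1.77 points over the 8 genes and -0.11 over all. No gene of the genome passed a Benjamini-Hochberg adjusted p of 0.05 in the exact permutation test over libraries. The smallest raw p that 4 against 4 libraries allow is 0.0286, and the smallest adjusted p was 0.0540 in the whole lists and 0.123 in lists of equal length, so separation of the groups is given below as a description. At an unadjusted p below 0.05 there were 6955 of 13145 genes in the whole lists and 2990 of 12894 in lists of equal length.

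**Figure D1:**
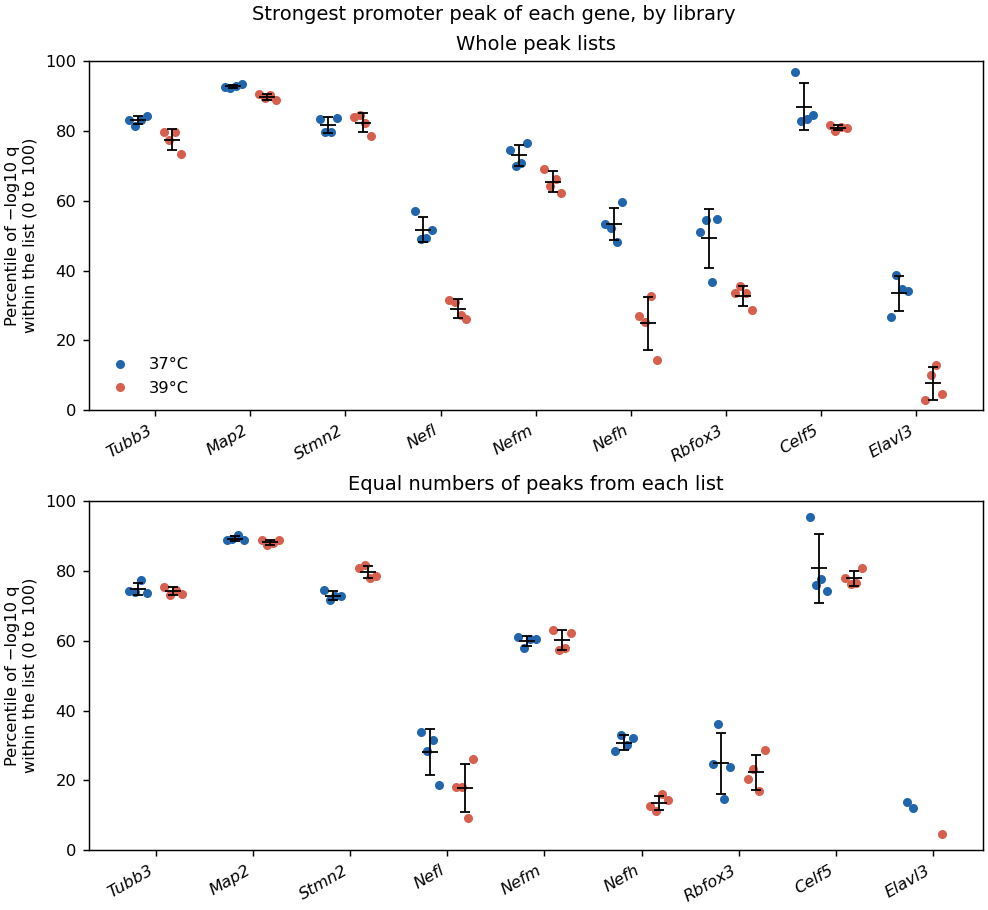
Percentile of the strongest promoter peak of each gene (y axis, 0 to 100, 100 strongest) in each of 4 libraries at 37°C (blue) and 39°C (red), with mean and SD in black where all 4 libraries had a peak. In the whole lists (top) 8 of 9 genes sit lower at 39°C, and in lists of equal length (bottom) *Nefh* stays lower, *Stmn2* sits higher and 6 genes overlap, while *Elavl3* keeps a peak in only 2 libraries at 37°C and 1 at 39°C.

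*Map2*, which encodes the dendritic microtubule-associated protein, had the strongest promoter peak of the set at 39°C. Its percentile was 92.7, 92.2, 92.8 and 93.4 in replicates 1 to 4 at 37°C and 90.7, 89.5, 90.3 and 88.7 at 39°C. The groups did not overlap in the whole lists (92.8 ± 0.49 against 89.8 ± 0.86, SD, 4 libraries each; two-sided exact permutation test, p = 0.0286, adjusted p = 0.0540). In lists of equal length they did, at 89.2 ± 0.68 and 88.2 ± 0.66 (two-sided exact permutation test, p = 0.0571, adjusted p = 0.184). The fold enrichment of the peak over the background of its library was 61.8, 68.8, 70.5 and 62.9 at 37°C and 72.7, 60.2, 73.4 and 41.8 at 39°C, with replicate 4 at 39°C the lowest. The gene has 23 annotated starts in 8 groups, and a peak was called at the 5′ group alone, in all 8 libraries, with its summit -2 to 20 bp from the gene's 5′ end.

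*Dcx*, which encodes a microtubule-binding protein of migrating young neurons, was the opposite case. No library had a peak anywhere in its locus of 117 kb on chromosome X. The nearest peak to the gene body lay 133, 133, 177 and 133 kb away at 37°C and 31.7, 133, 28.2 and 177 kb away at 39°C. Start regions that are open in many cell types are often rich in CpG, and the 250 bases directly upstream of the outermost annotated starts of *Dcx* and *Map2* are shown because they sit at the 2 ends of the set in accessibility. They are written 5′ to 3′ on the strand of the gene with each CpG in capitals, and were chosen after the values were seen.
Dcx (mm10, chrX:143933312-143933561, minus strand): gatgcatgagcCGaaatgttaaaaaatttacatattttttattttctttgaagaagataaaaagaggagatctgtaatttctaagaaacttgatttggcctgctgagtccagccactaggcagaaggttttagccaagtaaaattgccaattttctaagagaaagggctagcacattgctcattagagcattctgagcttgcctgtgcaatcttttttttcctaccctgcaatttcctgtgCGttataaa
Map2 (mm10, chr1:66175023-66175272, plus strand): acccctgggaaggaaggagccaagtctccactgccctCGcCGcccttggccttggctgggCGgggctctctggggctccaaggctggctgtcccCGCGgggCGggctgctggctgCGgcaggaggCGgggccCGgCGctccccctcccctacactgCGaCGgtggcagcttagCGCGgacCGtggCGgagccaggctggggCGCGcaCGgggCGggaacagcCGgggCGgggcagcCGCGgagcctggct
The *Dcx* window holds 2 CpG and the *Map2* window 24. Over all protein-coding genes the median was 14 where the promoter had a peak in every library and 2 where it had none, and 24.6% of genes had no more CpG than *Dcx*, so this window describes the gene and does not set it apart. Within 500 bp on each side of the gene's 5′ end, *Dcx* had 13 CpG, *Stmn2* 15 and *Rbfox3* 7, and the other members 57 to 85, where the median of genes with a peak in every library was 61 and that of genes with none was 9. *Stmn2* and *Rbfox3* are treated next and further on, since their promoter peaks lay away from that 5′ end.

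*Stmn2* was the one gene whose promoter peak did not sit lower at 39°C. Its percentile was 83.4, 79.7, 79.8 and 83.8 at 37°C and 83.9, 84.7, 82.4 and 78.4 at 39°C, so the groups overlapped in the whole lists. In lists of equal length it was 74.5, 71.6, 72.7 and 72.8 at 37°C and 80.8, 81.7, 78.0 and 78.4 at 39°C. Every 39°C library was then above every 37°C library, with means of 72.9 ± 1.22 and 79.7 ± 1.81 (SD, 4 libraries each; two-sided exact permutation test, p = 0.0286, adjusted p = 0.123). That separation remained without each library in turn, at differences of 6.15 to 7.40 points. The fold enrichment was 32.6, 29.7, 30.3 and 31.6 at 37°C and 48.7, 45.9, 45.4 and 25.5 at 39°C, higher in 3 of the 4 libraries at 39°C and lowest in replicate 4. The summit of this peak was not at the start site but 1572 to 1765 bp inside the gene. It was also the only consensus region of the *Stmn2* locus of 92.2 kb, and no library had a distal peak there.

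*Tubb3* had a promoter peak at 83.2, 81.5, 83.3 and 84.4 percentile at 37°C and at 79.6, 77.4, 79.6 and 73.5 at 39°C. The groups were apart in the whole lists (83.1 ± 1.18 against 77.5 ± 2.89, SD, 4 libraries each; two-sided exact permutation test, p = 0.0286, adjusted p = 0.0540) and overlapped in lists of equal length (74.9 and 74.2). Its peak was also wider at 37°C, at 9323, 4455, 4737 and 9054 bp, than at 39°C, at 3873, 3663, 3848 and 3065 bp. Both deep libraries had the widest peaks, which also took in a start of the neighbouring *Mc1r*, and in replicate 1 the summit lay at -1268 bp. The peak took in a start of *Gm38092* in all 4 libraries at 37°C and in 1 at 39°C, so the width covers more than the *Tubb3* start. The other 2 libraries at 37°C were still above all 4 at 39°C (over all 8 libraries, two-sided exact permutation test, p = 0.0286, adjusted p = 0.122). Over the set, 4 of 9 promoter peaks were narrower in every 39°C library (*Tubb3*, *Nefl*, *Nefh* and *Elavl3*), against 23.4% of all genes, and none was wider in every 39°C library, against 0.129%. Without replicate 3 at 37°C, 7 widths did not overlap, but the share of all genes was not taken at that setting. No adjusted p for width passed 0.05 in the genome, with 3091 genes at an unadjusted p below 0.05 in the exact permutation test.

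The 3 neurofilament subunits differed in level. The promoter peak of *Nefm*, the medium subunit, had a percentile of 74.6, 69.98, 70.8 and 76.4 at 37°C and 69.1, 64.2, 66.3 and 62.1 at 39°C. That of *Nefl*, the light subunit, had 56.9, 49.0, 49.3 and 51.5 at 37°C and 31.6, 31.1, 27.2 and 26.2 at 39°C. That of *Nefh*, the heavy subunit, had 53.4, 52.2, 48.2 and 59.6 at 37°C and 27.0, 25.3, 32.7 and 14.3 at 39°C. All 3 were apart in the whole lists, with differences (39°C minus 37°C) of -22.7 points for *Nefl*, -28.5 for *Nefh* and -7.53 for *Nefm*. In lists of equal length *Nefm* had the same level at both temperatures within its spread (60.0 ± 1.44 and 60.1 ± 2.84, SD, 4 libraries each). *Nefl* overlapped there through replicate 4 of each temperature, at 28.1 ± 6.66 and 17.9 ± 6.93 (SD, 4 libraries each; two-sided exact permutation test, p = 0.0571, adjusted p = 0.184), and was apart without either of these libraries. *Nefh* was lower in every 39°C library, with values of 28.4, 32.9, 30.1 and 32.1 at 37°C and 12.6, 11.2, 16.1 and 14.3 at 39°C. Its means were 30.9 ± 2.04 and 13.5 ± 2.14 (SD, 4 libraries each; two-sided exact permutation test, p = 0.0286, adjusted p = 0.123), and it stayed apart without each library in turn, at differences of -18.2 to -16.5 points. In replicates 1 and 4 at 37°C this peak, 3242 and 3569 bp wide, had its summit at -1380 bp and was the same peak as that over the upstream RE1 match described below, while the 39°C summits lay 425 to 701 bp inside the gene. The 2 other libraries at 37°C, with summits 639 and 912 bp inside the gene, were also above all 4 at 39°C, at 32.9 and 30.1 in lists of equal length. *Nefh* peaks were weak at both temperatures, with a fold enrichment of 6.38, 7.59, 7.05 and 7.76 at 37°C and 4.76, 4.36, 5.59 and 3.37 at 39°C. *Nefl* lies inside the span annotated for *Nefm* on chromosome 14, so the peaks of the *Nefl* locus are counted in both.

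*Rbfox3*, the gene of NeuN, had its promoter peak near an inner start. Its percentile was 51.1, 54.5, 36.8 and 54.7 at 37°C and 33.5, 35.5, 33.5 and 28.8 at 39°C, and in lists of equal length the groups overlapped (24.9 and 22.3). The peak was called in all 8 libraries, with its summit 403480 to 403560 bp downstream of the outermost 5′ end. The summit lay within 1 kb upstream of the start nearest the 3′ end of the gene (chr11:118507353), not on it. Of the other 6 groups of starts, 1 had a peak in 3 libraries at 37°C and none at 39°C, the pair near the outer 5′ end shared a peak in replicate 3 at 37°C, and 3 had none. None of these 6 had a peak in lists of equal length. Counted at the outermost start alone, *Rbfox3* therefore had no promoter peak in any library.

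*Celf5* had percentiles of 97.0, 82.9, 83.4 and 84.6 at 37°C and 81.6, 80.0, 81.2 and 81.0 at 39°C. In replicate 1 at 37°C the peak was 18832 bp wide and had its summit at -13758 bp from the gene's 5′ end, upstream of it, so the value of that library is not a measure of the *Celf5* start alone. The other 7 widths were 1857 to 2412 bp. The groups overlapped in lists of equal length, where they stood at 95.4, 76.0, 77.6 and 74.1 at 37°C and 77.9, 76.3, 76.6 and 81.0 at 39°C. Of the 3 inner groups of *Celf5* starts, 1 had a peak in 4 libraries at 37°C and none at 39°C, a pattern of 3.39% of 26669 inner groups of starts in the genome, another in 3 and none, and another in 4 and 3. With lists cut to equal length these became 4 and none, 2 and none, and 4 and none, where 1.1% of inner groups had a peak in every 37°C library and no 39°C library. These groups are not separate measurements, since 1 wide peak reached within 1 kb of all 3 in each deep library and 1 peak did so for 2 of them in the other 2 libraries at 37°C.

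*Elavl3* had the weakest promoter peak of the set. Its percentile was 26.7, 38.7, 34.8 and 34.0 at 37°C and 3.02, 9.99, 13.1 and 4.64 at 39°C, so at 39°C it was near the bottom of every list. Its fold enrichment was 3.11, 5.15, 4.99 and 3.62 at 37°C and 2.47, 3.01, 3.49 and 2.70 at 39°C. In lists of equal length it was kept only in replicates 2 and 3 at 37°C and replicate 4 at 39°C. In 7 libraries the summit was 1227 to 1283 bp inside the gene, and in replicate 4 at 39°C, where the peak was 364 bp wide, it was at the start site.

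**Figure D2:**
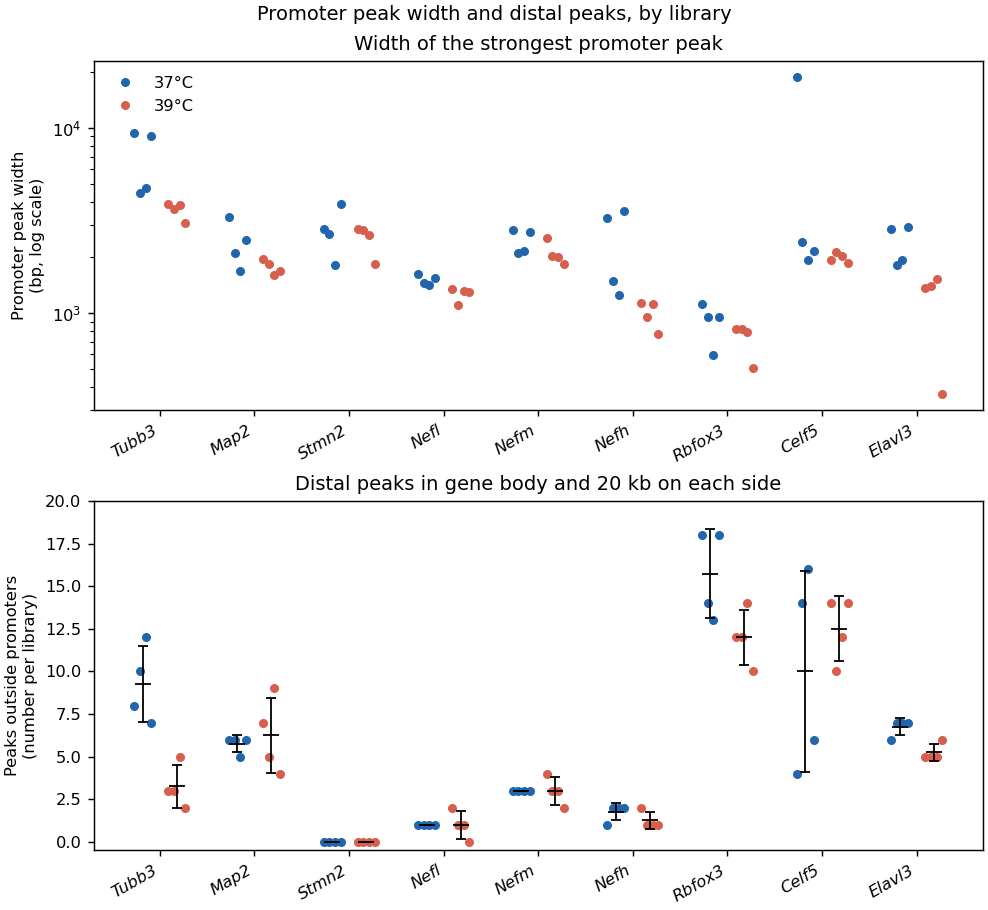
Width of the strongest promoter peak in bp on a log scale (top) and number of distal peaks (bottom) for each gene in 4 libraries at 37°C (blue) and 39°C (red), with mean and SD in black for the distal peaks. The widths of *Tubb3*, *Nefl*, *Nefh* and *Elavl3* do not overlap between temperatures, and *Tubb3* is the one gene whose numbers of distal peaks do not overlap.

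*Tubb3* stood out among distal peaks. It had 8, 10, 12 and 7 distal peaks at 37°C and 3, 3, 5 and 2 at 39°C, and was the only member with fewer in every 39°C library (9.25 ± 2.22 against 3.25 ± 1.26, SD, 4 libraries each; two-sided exact permutation test, p = 0.0286, adjusted p = 0.126). Of all genes with a distal peak, 22.3% showed this pattern and 0.329% the reverse, which no member showed. No adjusted p passed 0.05 in the genome, with 3991 of 17638 genes at an unadjusted p below 0.05 in the exact permutation test. With lists of equal length the *Tubb3* difference shrank from -6.00 to -1.25 peaks and the groups overlapped. *Rbfox3*, over a locus of 462 kb, had 18, 14, 13 and 18 at 37°C and 12, 12, 14 and 10 at 39°C. *Celf5* had 4, 14, 16 and 6 at 37°C and 14, 10, 12 and 14 at 39°C, and the 2 deep libraries had the fewest, with 13324 and 28844 bp covered by 4 and 6 wide peaks. *Elavl3* had 6, 7, 7 and 7 at 37°C and 5, 5, 5 and 6 at 39°C, which meet at 6 and no longer do without replicate 1 at 37°C or replicate 4 at 39°C. *Rbfox3* likewise no longer overlapped without replicate 3 at 39°C. *Map2* had 4 to 9, *Nefm* 2 to 4, and *Nefl* and *Nefh* at most 2 in each library.

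Merging the peaks of all libraries gave 62 consensus regions in the 10 loci, each called in at least 2 libraries: 11 at promoters of the members, 8 at promoters of neighbouring genes and 43 distal. Of these, 33 (53.2%) were called in all 8 libraries, against 52.9% of 84777 consensus regions in the genome. All 8 libraries called 16 of the 43 distal regions and 10 of the 11 promoter regions of the members, and this difference was not tested. There were 6 regions called in every 37°C library and no 39°C library (9.68%), against 6.04% in the genome, and no region with the opposite pattern, against 0.314%. Exact Fisher tests of presence reached an adjusted p below 0.05 for no region of the genome, with 5386 at an unadjusted p below 0.05.

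The 6 regions called only at 37°C were all weak, with a median fold enrichment of 2.82 to 3.50. *Tubb3* held 4 of them: 2 in its own introns (chr8:123413565-123414497 and chr8:123415899-123417318) and 2 in *Tcf25* upstream, at chr8:123396174-123401604 in an intron within 1 kb of a *Tcf25* start and chr8:123401993-123403684 in an exon. The others were in an intron of *Celf5* (chr10:81479904-81481006) and in an intron of *Zfp653* upstream of *Elavl3* (chr9:22066352-22067031). In lists of equal length none of the 6 had a peak in any library at either temperature. Of all 62 regions, 23 were called in fewer libraries at 39°C, 5 in more, and 34 in equal numbers.

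**Figure D3:**
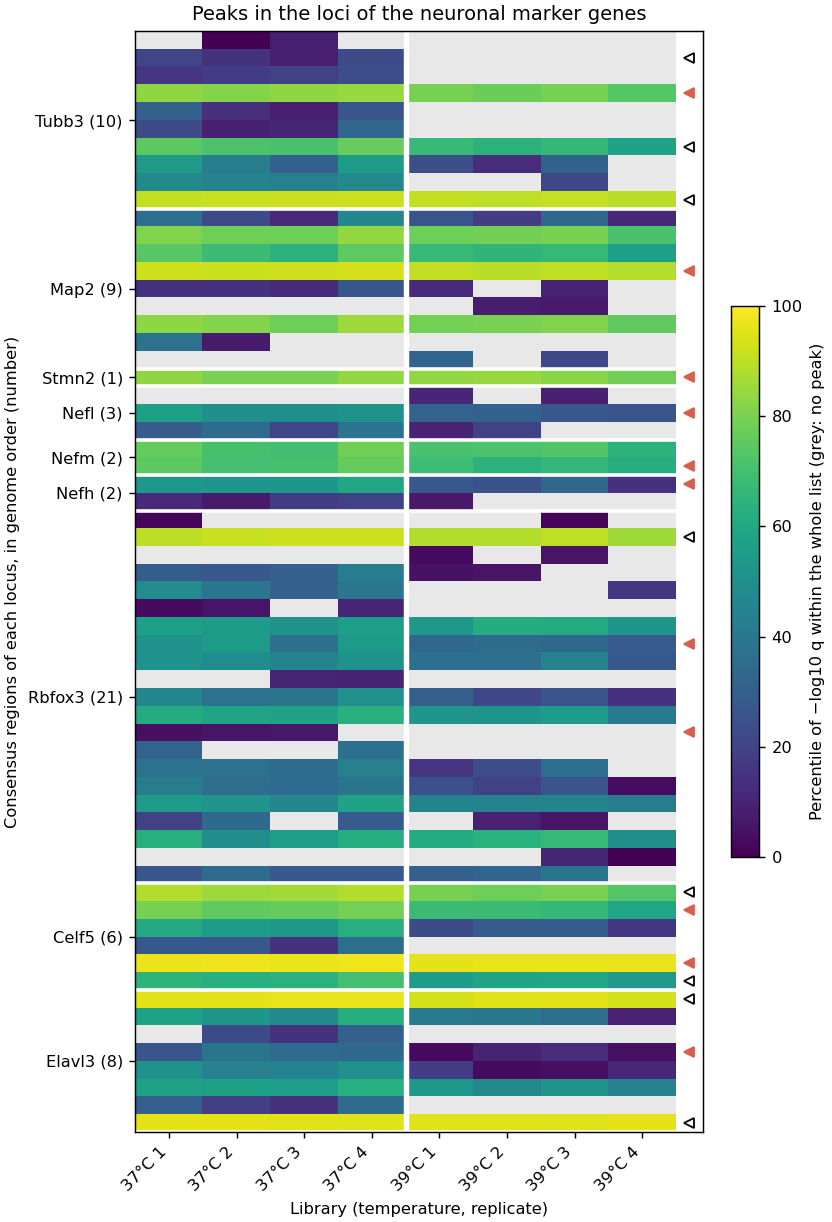
Percentile of the strongest peak in each of the 62 consensus regions (rows, grouped by gene in genome order, with the number of regions in brackets) in each library (columns), grey where no peak was called; regions that *Nefl* and *Nefm* share are drawn under *Nefl*. Filled triangles mark promoters of the members and open triangles promoters of neighbouring genes, and the regions grey in all 4 columns at 39°C and coloured in all 4 at 37°C are the 6 named in the text, 4 of them at *Tubb3*.

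The strongest distal region differed among loci in level and in sharing. By percentile in the whole lists, averaged over the libraries with a call, the strongest of each locus was at 80.4 for *Map2* (chr1:66244261-66245856, intron, 69839 bp from the 5′ end), 72.0 for *Nefm* (chr14:68111006-68112566, intron), 59.0 for *Rbfox3* (chr11:118752211-118753274, intron) and 41.1 for *Celf5* (chr10:81476799-81478584, intron), all called in 8 libraries. At *Elavl3* it was at 53.8 and lay in an exon of the neighbouring *Zfp653* (chr9:22057623-22058872), again called in 8. At 37°C alone another *Rbfox3* intron region (chr11:118523411-118524624) was higher, at 60.2 against 57.6. At *Nefl* (chr14:68101859-68102319, in an intron of *Nefm*) and *Nefh* (chr11:4953354-4954381, between genes) the strongest distal region was called in 4 libraries at 37°C and in 2 and 1 at 39°C. At *Tubb3* a pair of regions in introns of *Def8* had nearly the same level. The region chr8:123434105-123434850 averaged 45.8 over 4 libraries at 37°C and stood at 21.7 in the 1 library with a call at 39°C, and chr8:123425515-123426895 averaged 45.2 over 4 libraries and 22.6 over 3.

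In the whole lists, 33 regions of the loci had a peak in every library. Of these, 21 were lower in every 39°C library, none was higher and 12 overlapped, where 54.2% of 44861 regions in the genome were lower and 0.798% higher. Once lists were cut to equal length, 29 regions had a peak in every library, of which 6 were lower, 5 were higher and 18 overlapped, where 22.5% of 41177 regions in the genome were lower and 15.5% higher. No region of the genome passed an adjusted p of 0.05 in the exact permutation test in either. The smallest adjusted p was 0.0520 in the whole lists and 0.0752 in lists of equal length, and 24666 and 15653 regions had an unadjusted p below 0.05. The 5 regions higher in lists of equal length were the *Stmn2* promoter, the strongest distal regions of *Map2*, *Nefm* and *Rbfox3*, and another *Rbfox3* intron region. In the whole lists all 5 overlapped between temperatures, and the means of the *Map2* region (81.8 at 37°C and 78.9 at 39°C) and the *Nefm* region (73.9 and 70.1) were lower at 39°C. At *Rbfox3* the differences were the largest of the 5. The region chr11:118752211-118753274 stood at 42.9, 29.0, 40.5 and 36.5 at 37°C and 53.9, 56.8, 58.7 and 49.4 at 39°C. The region chr11:118499290-118500513, also in an intron, stood at 33.0, 36.1, 33.7 and 26.3 at 37°C and 44.1, 54.6, 52.1 and 52.6 at 39°C. Both sets of values lay apart by more than their spread (37.2 ± 6.06 against 54.7 ± 4.06, and 32.3 ± 4.22 against 50.8 ± 4.63, SD, 4 libraries each; two-sided exact permutation test, p = 0.0286 and adjusted p = 0.0752 for each). Their means in the whole lists were 57.6 and 60.4, and 54.5 and 57.3. The promoter peak of the same gene lay between them and overlapped between temperatures in lists of equal length.

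The 6 regions lower in lists of equal length included the promoter region of *Nefh*, 3 regions at *Celf5*, an intron of *Elavl3* (chr9:22020444-22022174) and the promoter of *Def8* next to *Tubb3*. The region with the largest difference was the *Celf5* intron region chr10:81476799-81478584, at 37.6 ± 0.96 at 37°C and 12.8 ± 3.97 at 39°C (SD, 4 libraries each; two-sided exact permutation test, p = 0.0286, adjusted p = 0.0752). The next was the *Nefh* promoter region, at 32.4 ± 3.19 and 13.8 ± 2.52. Both hold an RE1 match, and so does the *Stmn2* promoter region, which was among those higher at 39°C in lists of equal length.

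RE1 was searched as its consensus of 17 bases on both strands with no mismatch, and was chosen because it is known at neuronal genes. The genome held 2163 matches, of which 15.0% lay in a consensus region, and 0.372% of consensus regions held one. Loci of 9 of the 10 genes held a match, all but *Map2*, against 8.87% of the loci of all protein-coding genes. The loci of the set were longer, with a median of 79.6 kb against 57.4 kb. There were 13 distinct matches in the loci, since *Nefl* and *Nefm* share one. Of these, 5 lay under a peak of at least 1 library, 2 of them under a peak in all 8, and 8 lay under none. Those under a peak, and that of *Dcx*, which was under none, are shown with 12 bases on each side, 5′ to 3′ on the strand of the match, with the match in capitals and the position that of the match on mm10.
Nefh (chr11:4949398-4949414, plus strand, 1342 bp upstream): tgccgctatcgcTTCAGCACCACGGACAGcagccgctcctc
Celf5 (chr10:81477742-81477758, minus strand, intron): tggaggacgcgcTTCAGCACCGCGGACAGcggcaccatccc
Rbfox3 (chr11:118584956-118584972, minus strand, intron): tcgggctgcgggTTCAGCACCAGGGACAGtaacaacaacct
Tubb3 (chr8:123414456-123414472, plus strand, intron): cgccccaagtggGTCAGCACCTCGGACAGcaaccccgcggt
Stmn2 (chr3:8508230-8508246, plus strand, 1122 bp upstream): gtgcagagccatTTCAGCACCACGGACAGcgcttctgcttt
Dcx (chrX:143904875-143904891, plus strand, intron): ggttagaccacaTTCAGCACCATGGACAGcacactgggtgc
The *Nefh* and *Stmn2* matches have the same 17 bases, but only that of *Nefh* had a summit nearby. A match to the consensus is a description of sequence and does not show that REST is bound.

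At *Nefh* and *Celf5* the peak summit lay close to the match in every library, 23 to 92 bp away at *Nefh* and 21 to 149 bp away at *Celf5*. The *Nefh* peak over the match had a percentile of 53.4, 49.0, 52.7 and 59.6 at 37°C and 25.3, 25.3, 33.5 and 4.64 at 39°C. The *Celf5* peak over the match had 60.3, 55.4, 53.1 and 62.6 at 37°C and 22.7, 29.0, 29.7 and 15.9 at 39°C. The values of *Nefh* in replicates 1 and 4 at 37°C are those of its promoter peak, since 1 peak covered both. The groups were apart at both sites and stayed apart in lists of equal length, at 31.3 ± 3.71 against 10.8 ± 5.05 for *Nefh* and 37.6 ± 0.96 against 12.8 ± 3.97 for *Celf5* (SD, 4 libraries each). The fold enrichment of the 2 peaks was 6.38 to 8.15 and 8.27 to 8.83 at 37°C and 2.70 to 5.69 and 3.49 to 5.19 at 39°C. Among all consensus regions that hold a match, 185 could be compared in the whole lists, of which 64.3% were lower and 0.541% higher in every 39°C library, beside 54.2% and 0.798% of all regions. Of these, 178 could be compared in lists of equal length, where 25.3% were lower and 8.99% higher, beside 22.5% and 15.5%.

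The other matches were seldom open. That of *Rbfox3* lay under a peak in the 2 deep libraries at 37°C alone, with the summit 78 bp away and percentiles of 31.7 and 37.1. That of *Tubb3* lay in one of the regions called only at 37°C but under the peak itself only in replicate 1, with the summit 332 bp away. That of *Stmn2* lay at the edge of a 3869 bp peak in replicate 4 at 37°C, with the summit 2771 bp away. The matches at *Nefl* and *Nefm*, *Elavl3* and *Dcx*, and the other matches at *Rbfox3* and *Stmn2*, had no peak over them in any library.

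**Figure D4:**
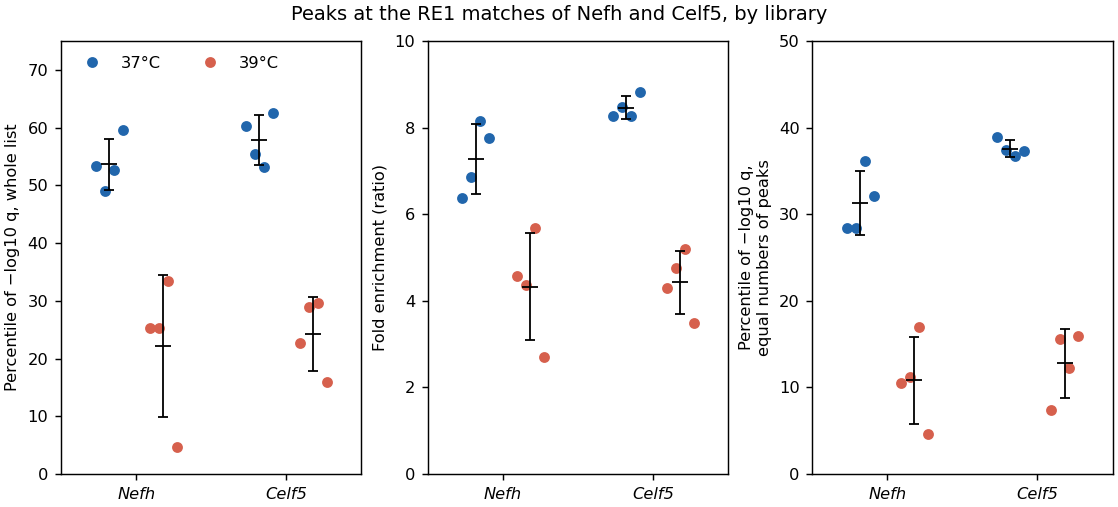
Strength of the peak over the RE1 match at *Nefh* and *Celf5* in 4 libraries at 37°C (blue) and 39°C (red), with mean and SD in black, as percentile in the whole lists (left), as fold enrichment over the background of the library (middle) and as percentile in lists of equal length (right). All 4 libraries at 39°C sit below all 4 at 37°C in each panel.

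Short motifs were searched on both strands within 100 bp of the summits of the 62 regions. An E-box bound by neuronal basic helix-loop-helix factors (CAGATG) was present in 22.6% of them and in 17.2% of all consensus regions. The AP-1 motif (TGANTCA) was in 24.2% and 29.0%, the TEAD motif (GGAATG) in 8.06% and 16.9%, and the SP/KLF motif (GGGCGG) in 16.1% and 14.7%. These shares rest on 5 to 15 regions of the loci each.

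Promoter presence was then read beside other gene lists. Of 26 other genes of the neuronal cytoskeleton and of neuronal RNA-binding proteins, 21 had a promoter peak in all 8 libraries, 3 in none and 2 at 37°C alone. The last 2 were the stathmins *Stmn3*, with a peak in 4 libraries at 37°C and none at 39°C, and *Stmn4*, with 3 and none. The first pattern held for 1.46% of all genes. Both peaks ranked low at 37°C, with percentiles of 19.2, 11.8, 25.5 and 26.6 for *Stmn3*. Those of *Stmn4* were 13.7, 20.1 and 19.3 in replicates 1, 2 and 4. In the whole lists, the promoter percentile of 14 of the 21 was lower in every 39°C library and that of none was higher, beside 4 and 0 of 13 broadly expressed relatives, 4 and 1 of 5 neural progenitor genes, 2 and 0 of 4 glial genes, 4 and 0 of 9 mesenchymal genes, 1 and 0 of 1 gene of tissues outside the nervous system, and 52.4% and 0.51% of all genes. With lists cut to equal length, 6 of 19 were lower and 2 were higher, beside 4 and 0 of 13 broadly expressed relatives, 2 and 1 of 4 neural progenitor genes, 0 and 1 of 4 glial genes, 1 and 1 of 9 mesenchymal genes, 1 and 0 of 1 gene of tissues outside the nervous system, and 15.4% and 7.75% of all genes. Of 13 broadly expressed relatives of the members, all had a promoter peak in every library, with a median percentile of 99.4 at 37°C and 98.7 at 39°C against 73.0 and 65.4 for the neuronal set. The median was 86.8 and 80.2 for the other neuronal genes and 71.0 and 65.3 for the glial genes. Neural progenitor genes stood at 91.9 and 84.9, mesenchymal genes at 90.7 and 89.1, and the 1 gene of other tissues at 55.1 and 25.3. In each pair of relatives the broadly expressed gene stood higher. The mean percentile at 37°C was 92.2 for *Tubb5* against 83.1 for *Tubb3*, 99.4 for *Map4* against 92.8 for *Map2*, and 93.9 for *Stmn1* against 81.7 for *Stmn2*. It was 99.8 for *Rbfox2* against 49.3 for *Rbfox3*, whose peak lay near an inner start, with none at the outermost start. It was 96.3 for *Celf1* against 87.0 for *Celf5*, which includes the wide peak of replicate 1, and 98.9 for *Elavl1* against 33.6 for *Elavl3*. *Vim*, the intermediate filament gene of mesenchyme and progenitors, stood at 99.4, above all 3 neurofilament genes, and *Dclk1*, the relative of *Dcx*, at 97.9.

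Promoters of markers of other cell types were also called open. Of 8 neural progenitor genes 5 had a promoter peak in all libraries, *Hes5* in 2 at 37°C and none at 39°C, and *Fabp7* and *Prom1*, named after their values were seen, in none. Of 10 glial genes 4 had one in all libraries and 3 in none, while *S100b* had 4 libraries at 37°C and 1 at 39°C, *Olig1* 4 and none, and *Sox10* 4 and 3. Of 10 mesenchymal genes 9 had one in all libraries and *Col3a1* had 3 and 2. Of 10 genes of tissues outside the nervous system 1 had one in all libraries and 4 had none, and among the rest *Apoa1* (4 and 3), *Myh6* (3 and none), *Nkx2-5* (3 and none) and *Vil1* (4 and none) had one in some. Each gene named here with a peak in some libraries had it in fewer libraries at 39°C. Percentiles of these peaks at 37°C were low for *Vil1* (0.0377 to 13.8), *Nkx2-5* (2.05 to 10.4), *S100b* (2.74 to 9.59), *Hes5* (2.73 and 12.3) and *Olig1* (4.15 to 26.8). They were higher for *Myh6* (20.1 to 37.9), *Col3a1* (30.7 to 65.5), *Sox10* (47.5 to 56.4) and *Apoa1* (64.5 to 69.0). The pattern of 4 and none held for 1.46% of all genes. The 39°C lists were shorter, and the cause of these differences was not tested.

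**Figure D5:**
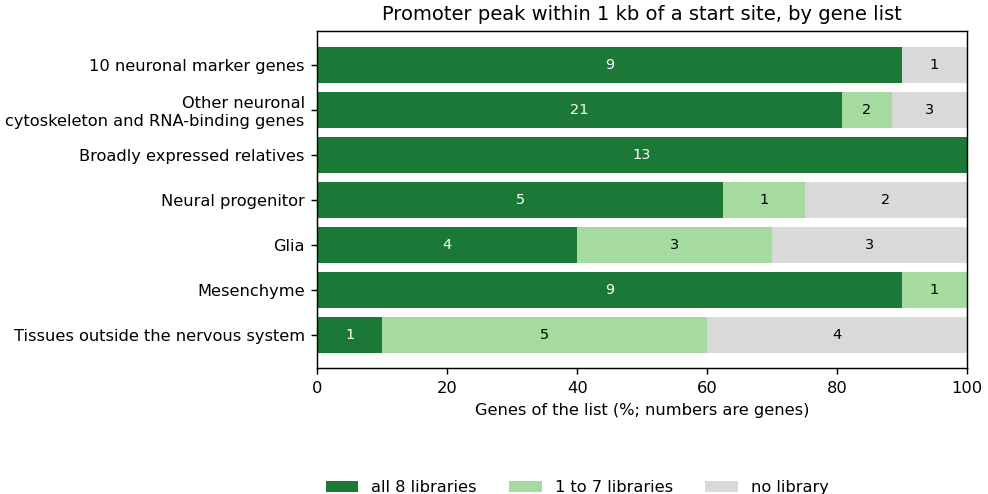
Share of the genes of each list (x axis, %) with a promoter peak in all 8 libraries (dark green), in 1 to 7 (light green) and in none (grey), with the numbers of genes in the bars. The neuronal set, at 9 of 10, sits level with the mesenchymal list, at 9 of 10, and the list of tissues outside the nervous system, at 1 of 10, has the fewest.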

How the data were processed

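Peak lists of 8 ATAC-seq libraries were used, 4 at each temperature. Per the labels and methods, the authors aligned reads to mm10 with Bowtie2 2.4.1, processed alignments with SAMtools 1.15.1, Picard 2.26.11 and bedtools 2.30.0, and called peaks in each library alone with MACS 3.0.0a7 at q 0.05, without a control and without a local background. The deposited lists give −log10 q, fold enrichment (the ratio of pileup to one background per library) and width in bp. The methods describe removal of blacklisted regions, but peak numbers run without gaps in the lists. They hold no read counts, so libraries were compared by presence, rank and width. Depth was the number of fragments the caller kept, 49.8 to 169 M. Nothing in the labels says that replicates came from separate cultures, so p-values measure the spread between these libraries, which may be technical.

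The strongest peak overlapping 1 kb on each side of any TSS (GENCODE M21) gave the promoter value. Other peaks overlapping gene body and 20 kb on each side were distal. Percentiles were 100 times (rank minus 0.5) over list length, with ties averaged. Peaks overlapping by 1 bp were merged, and consensus regions needed 2 libraries. Groups were compared by the exact permutation test over 70 assignments, two-sided, and presence by Fisher's exact test, adjusted by Benjamini-Hochberg over all protein-coding genes or consensus regions. The scripts were tested on simulated lists. Alternatives were −log10 q of at least 5, lists of equal length, other windows and flanks, summits in place of overlap, 50% coverage of regions, and libraries left out. The 10 genes, the wider lists, the motifs and the tests were chosen with earlier results of these data known. All members are named. Genes of the wider lists are named where presence was neither 0 nor 8 libraries or where they are family relatives, and regions where they are restricted to a temperature or the strongest distal region of a locus. 1 gene that this rule covers is not reported here. Other names were chosen after their values were seen. Python 3.11.15, numpy 2.4.6, pandas 2.3.3 and scipy 1.17.1 were used. RefSeq promoter entries were not used in the text, and sequences were read from the mm10 reference genome.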

Additional observations from a re-analysis of the deposited data

Results flagged for a closer look

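Of 50 groups of 4 libraries examined for percentile, width and distal peaks, 9 held a library far from the other 3. Chance gives about 1 in 20 for continuous values. That share does not hold for numbers of distal peaks, where 1 library that differs from 3 equal ones always counts as far. For *Celf5*, replicate 1 at 37°C stood apart both in promoter percentile (97.0 against 82.9 to 84.6) and in width (18832 bp against 1937 to 2412 bp). Replicate 4 at 39°C, the library with the fewest peaks, had a narrow promoter peak at *Rbfox3* (502 bp against 792 to 821 bp) and at *Elavl3* (364 bp against 1364 to 1527 bp). The other 5 are whole numbers of distal peaks that differ by 1 from 3 equal libraries: *Map2* in replicate 3 at 37°C with 5 against 6, *Nefh* in replicate 1 at 37°C with 1 against 2 and in replicate 1 at 39°C with 2 against 1, and *Elavl3* in replicate 1 at 37°C with 6 against 7 and in replicate 4 at 39°C with 6 against 5.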

How the results depend on the processing

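In lists of equal length, 1 gene in place of 8 had a lower promoter percentile in every 39°C library, 1 in place of 0 a higher one, 1 in place of 0 had a promoter peak in fewer 39°C libraries (*Elavl3*), and genes with fewer distal peaks and regions called only at 37°C both came to 0. With −log10 q of at least 5, these were 5 genes lower, 1 with fewer promoter peaks, 2 with fewer distal peaks and 3 regions. With the summit inside the window, 4 genes had a promoter peak in all libraries and 1 (*Stmn2*) in fewer 39°C libraries. *Tubb3*, *Nefm*, *Nefh* and *Elavl3* then had one in more 39°C libraries. At that setting 3 genes were lower, 1 differed in width and 2 had fewer distal peaks. A 5 kb window gave 2 genes that differed in width and 2 with fewer distal peaks. The outermost start alone gave 2 with fewer distal peaks, as did covered length. A 5 kb flank left 3 regions called only at 37°C. Without peaks at promoters of other genes, 1 gene (*Celf5*) had more distal peaks in every 39°C library. Without the 2 deep libraries, 2 genes had fewer distal peaks and 11 regions were called only at 37°C, where 2 libraries suffice.

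Leaving out each library gave 4 to 7 genes that differed in width (7 without replicate 3 at 37°C), 1 or 2 with fewer distal peaks (2 without replicate 1 at 37°C or replicates 3 or 4 at 39°C) and, in lists of equal length, 1 or 2 with a lower percentile (*Map2* joins *Nefh* without replicate 1 of either temperature, *Nefl* without replicate 4 of either), an alternative added after the data were seen. Differences (39°C minus 37°C) of single genes that changed sign were *Nefm* percentile 0.14 and *Nefh* distal peaks 0.50 in lists of equal length, *Nefh* distal peaks 0.50 with a 5 kb flank, *Celf5* percentile 12.8 with the summit inside the window, *Celf5* distal peaks -2.50 without the deep libraries, *Stmn2* percentile -0.12 without replicate 2 at 39°C (-0.12 to 1.96 over the libraries left out) and *Map2* distal peaks -0.42 without replicate 3 at 39°C (-0.42 to 1.25). When a library was left out of lists of equal length, percentile differences also changed sign for *Celf5* (2.03 without replicate 1 at 37°C), *Rbfox3* (1.22 without replicate 2 at 37°C), *Tubb3* (0.15 without replicate 3 at 37°C) and *Nefm* (-0.81 to 1.04). In the whole lists with all libraries the percentiles of *Nefm*, *Celf5*, *Rbfox3* and *Tubb3* were lower in every 39°C library, and the groups overlapped for the other values. The cause of these moves was not tested, and shares over all genes were not taken with libraries left out.

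Deviations of same-numbered libraries correlated at 0.29, -0.06, -0.20 and -0.51, and those of other pairs at -0.36 to 0.44. No pairing by replicate number was visible, and 4 pairs cannot exclude it. With the replicate block, 8 genes had a lower percentile in all 4 pairs, 6 a width that differed in 1 direction and 2 fewer distal peaks, so the block changed the counts for width (4 without it) and distal peaks (1 without it). The lists hold no counts. Beyond the fold enrichment, a ratio to the background of the library, a difference in depth cannot be corrected within a peak.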
